A study of Mus musculus with 16 samples.

Results

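The T cell receptor (TCR) genes described here are the constant genes of the beta chain (*Trbc1*, *Trbc2*), alpha chain (*Trac*), delta chain (*Trdc*) and gamma chain (*Trgc1*, *Trgc2*), together with *Trbv13-1*, a variable gene of the beta chain. They are 7 of the 23299 genes with values, and were chosen by name because they had differed between the diets in these same libraries. Ileal RNA was sequenced from wild-type (*Tas1r3*+/+) mice and from mice lacking the sweet and umami taste receptor subunit TAS1R3 (*Tas1r3*-/-), each on a normal diet (ND) or a Western diet (WD). The diet values of the 7 genes in each genotype, and the ratio of the beta chain to the other chains, are therefore given as descriptions without a test. Comparisons of genotype and sex, and of other T cell genes, were tested.

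All mice were on the C57BL/6 background. The knockout carried the Tas1r3tm1Csz allele, backcrossed for at least 7 generations, and littermates served as controls. Feeding started at 5 to 6 weeks of age and lasted 10 weeks. ND was D12450J with plain water, whereas WD was D12492, with 60% fat, with a 30% sucrose drink. The labels list 16 samples, 4 per group with 2 males and 2 females each, and number them as replicates within each sex, so p-values measure the spread between these libraries. Only 13 libraries were used: 4 of ND-fed *Tas1r3*+/+, 4 of WD-fed *Tas1r3*+/+, 2 of ND-fed *Tas1r3*-/- and 3 of WD-fed *Tas1r3*-/- mice. Both female columns of the ND-fed *Tas1r3*-/- group are weighted means of its male columns and were left out, and the female columns of the WD-fed *Tas1r3*-/- group, which are arithmetically related, were averaged into 1 female library. *Tas1r3* itself was at 1.80 to 6.27 RPKM (read numbers divided by transcript length and by a library total) in the *Tas1r3*+/+ libraries and at most 0.00452 RPKM in the *Tas1r3*-/- libraries. The values imply 7003265 to 12384730 reads per library. All ND columns summed to between 817011 and 819992 RPKM and all WD columns to between 542371 and 685274 RPKM, so a difference in how the libraries of each diet were processed cannot be told apart from the diet. Scaling of the libraries to each other brought the median log2 change of all genes to 0.02 in *Tas1r3*+/+ and 0.00 in *Tas1r3*-/- mice, against -0.38 and -0.35 without scaling.

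T cells recognise antigen through a receptor made of an alpha and a beta chain or of a gamma and a delta chain. Each chain joins a variable region, assembled from gene segments by recombination, to a constant region. A T cell clone uses one beta variable segment for its productive receptor, so the amounts of single variable genes follow the clones present, whereas the constant genes follow the chains in general. The ileum holds both kinds of T cell, with many gamma delta and CD8+ cells lying within its epithelium. In bulk tissue RNA, fewer T cells and less receptor RNA per T cell cannot be told apart.

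The beta chain genes lie on chromosome 6. In the GENCODE M21 annotation of GRCm38, *Trbv13-1* (ENSMUSG00000076467.3) spans 41116007 to 41116468 on the plus strand. *Trbc1* (ENSMUSG00000076490.6) spans 41538218 to 41539881 and *Trbc2* (ENSMUSG00000076498.2) spans 41546730 to 41548352, both on the plus strand. *Trac* (ENSMUSG00000076928.5) is at 54220521 to 54224206 and *Trdc* (ENSMUSG00000104876.1) at 54142851 to 54148868 on the plus strand of chromosome 14. *Trgc1* (ENSMUSG00000076749.2) is on the plus strand of chromosome 13 at 19214103 to 19217024, and *Trgc2* (ENSMUSG00000076752.2) on its minus strand at 19304649 to 19307551.

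The variable exon of *Trbv13-1* is shown with the same exon of the closest family members in the table, because reads from this family are only separable where their bases differ. The exons lie at chr6:41116175-41116468, chr6:41121539-41121832 and chr6:41130292-41130585 on the plus strand of GRCm38, and capitals mark bases that differ from *Trbv13-1*. Of 294 bases, *Trbv13-2* differs at 33 (88.8% identity) and *Trbv13-3* at 41 (86.1% identity), and the longest runs shared with *Trbv13-1* are 31 and 34 bases.
Trbv13-1: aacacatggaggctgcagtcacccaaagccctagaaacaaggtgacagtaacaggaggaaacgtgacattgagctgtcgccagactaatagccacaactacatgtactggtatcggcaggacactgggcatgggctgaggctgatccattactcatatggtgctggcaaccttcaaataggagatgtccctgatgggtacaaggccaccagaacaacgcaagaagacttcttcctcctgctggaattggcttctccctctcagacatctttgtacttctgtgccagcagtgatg
Trbv13-2: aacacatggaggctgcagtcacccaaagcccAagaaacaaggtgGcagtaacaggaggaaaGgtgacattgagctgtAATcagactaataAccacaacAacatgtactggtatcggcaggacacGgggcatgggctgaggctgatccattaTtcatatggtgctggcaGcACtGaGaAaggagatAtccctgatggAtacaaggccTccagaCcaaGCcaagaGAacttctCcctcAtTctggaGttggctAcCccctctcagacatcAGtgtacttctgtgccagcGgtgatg
Trbv13-3: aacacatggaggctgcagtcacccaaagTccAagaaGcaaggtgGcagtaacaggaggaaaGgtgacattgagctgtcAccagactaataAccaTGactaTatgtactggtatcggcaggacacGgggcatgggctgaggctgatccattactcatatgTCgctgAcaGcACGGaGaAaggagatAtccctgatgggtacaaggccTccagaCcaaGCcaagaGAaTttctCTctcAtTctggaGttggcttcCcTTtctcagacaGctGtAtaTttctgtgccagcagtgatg

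*Trbc1* and *Trbc2* are far closer to each other. Their first 3 exons hold 500 bases, of which 19 differ, and the longest identical run is 259 bases, so reads from these stretches could be divided between the genes by the quantification and the values of either gene alone are uncertain. Exon 3, at chr6:41539229-41539335 and chr6:41547772-41547878 on the plus strand, holds 15 of the differences, shown in capitals.
Trbc1: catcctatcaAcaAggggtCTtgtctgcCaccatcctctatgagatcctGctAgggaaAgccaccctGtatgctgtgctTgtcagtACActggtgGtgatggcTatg
Trbc2: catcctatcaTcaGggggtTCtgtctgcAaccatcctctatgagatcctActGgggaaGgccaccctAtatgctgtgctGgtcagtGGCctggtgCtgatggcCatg

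*Trbv13-1*, the variable gene, was far higher in every WD library than in every ND library. In ND-fed *Tas1r3*+/+ mice it was at 4.22 and 4.62 RPKM in males and 3.73 and 2.59 RPKM in females. In WD-fed *Tas1r3*+/+ mice it was at 85.5 and 47.2 RPKM in males and 170 and 76.5 RPKM in females. The group means were 3.79 ± 0.881 (SD, n = 4) and 94.7 ± 52.5 RPKM (SD, n = 4), so the lowest WD library lay above the highest ND library by a wide margin.

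The knockout mice showed the same order. *Trbv13-1* was at 3.47 and 3.02 RPKM in the ND-fed *Tas1r3*-/- males, and at 37.1 and 46.3 RPKM in the WD-fed males and 51.2 RPKM in the averaged female library. The log2 change from ND to WD, on scaled RPKM plus a pseudocount of 0.5, was 4.76 (SE 0.34; 27.1-fold) in *Tas1r3*+/+ and 3.97 (SE 0.44; 15.7-fold) in *Tas1r3*-/- mice. It ranked first of the 19042 genes tested in both genotypes. The gene was selected on these diet contrasts, so nothing is read from this rank. The ND values rest on few reads, 8 to 14 per library, against 133 to 594 in the WD libraries. Scaled instead by the implied reads of each library (RPM, with no library total of the authors), *Trbv13-1* was at 0.807 to 1.71 in ND-fed and 21.9 to 76.6 in WD-fed *Tas1r3*+/+ mice, and at 1.10 to 1.40 against 17.6 to 23.5 in *Tas1r3*-/- mice.

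**Figure D1:**
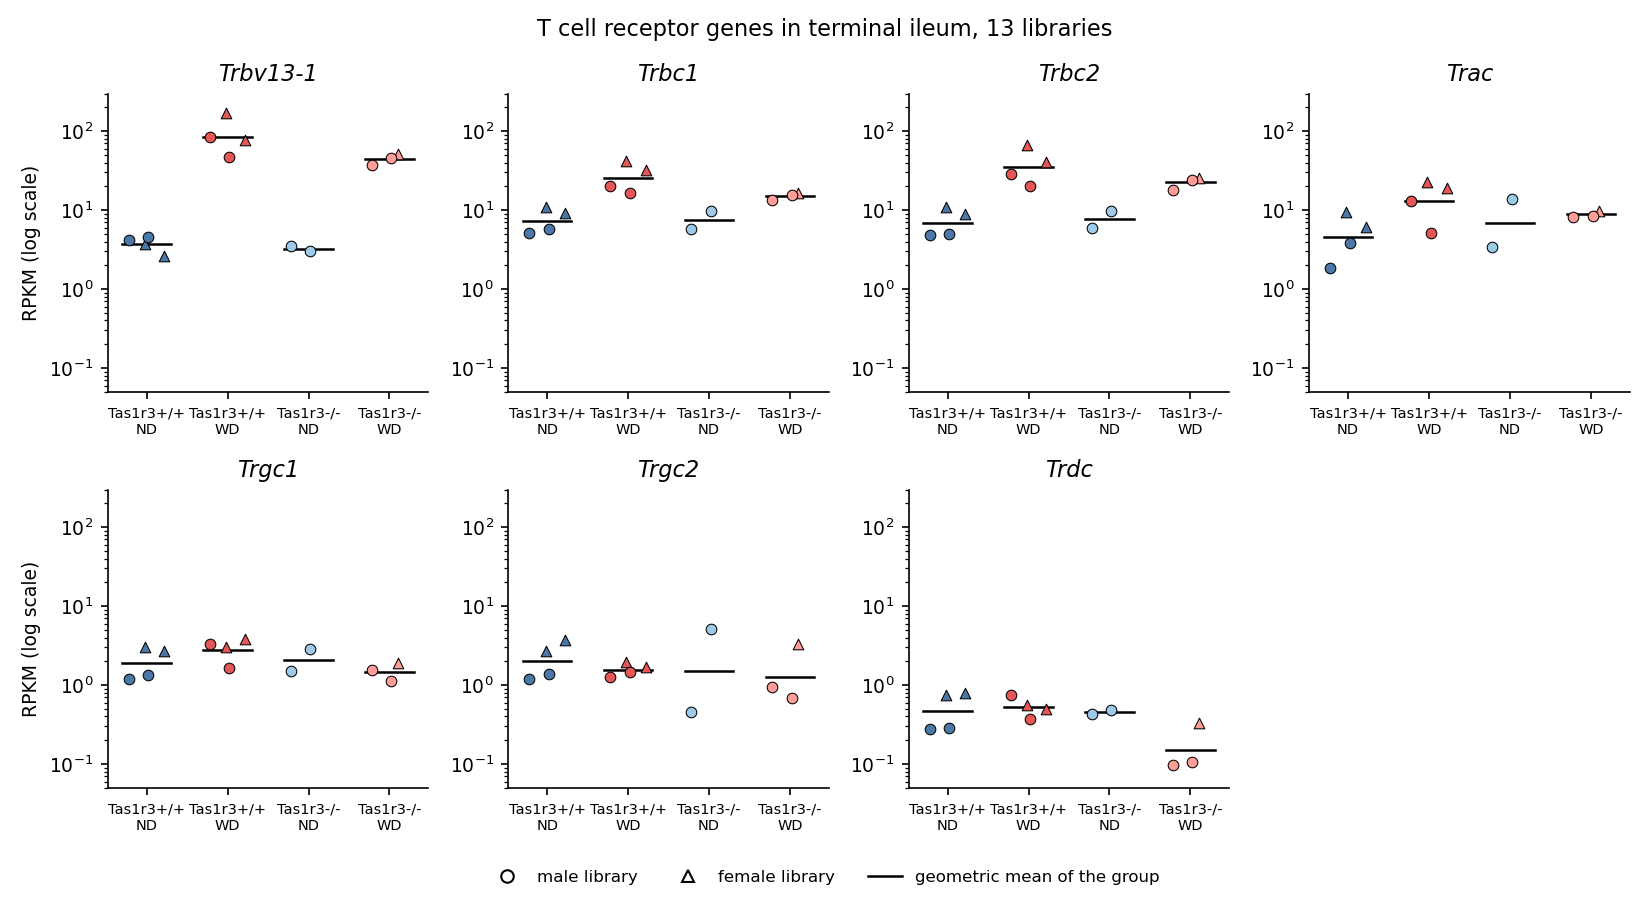
RPKM of the 7 TCR genes in each of 13 libraries on a log axis, with circles for males, triangles for females and bars for geometric means of the groups. *Trbv13-1* sits at 2.59 to 4.62 RPKM in all ND libraries and at 37.1 to 170 RPKM in all WD libraries, whereas the gamma and delta genes overlap between the diets in *Tas1r3*+/+ mice.

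The beta constant genes were also higher on WD, by a smaller factor than *Trbv13-1*. *Trbc2*, one of the constant genes that close the beta chain, was at 4.87, 5.01, 10.8 and 8.89 RPKM in ND-fed *Tas1r3*+/+ mice (male 1, male 2, female 1, female 2). It was at 28.3, 20.2, 66.6 and 41.1 RPKM in WD-fed *Tas1r3*+/+ mice in the same order, and no WD library overlapped an ND library. *Trbc2* in *Tas1r3*-/- mice was at 5.98 and 9.86 RPKM on ND and at 18.2, 24.0 and 25.8 RPKM on WD, again without overlap. Its log2 change was 2.70 (SE 0.35) in *Tas1r3*+/+ and 1.88 (SE 0.46) in *Tas1r3*-/- mice.

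*Trbc1*, the other beta constant gene, followed the same order between the diets, level with *Trbc2* on ND and below it on WD. It was at 5.09, 5.76, 10.8 and 9.23 RPKM on ND and at 20.0, 16.3, 41.5 and 31.9 RPKM on WD in *Tas1r3*+/+ mice. The *Tas1r3*-/- libraries were at 5.77 and 9.73 RPKM on ND and at 13.5, 15.7 and 16.3 RPKM on WD. Neither genotype had overlapping diets, and the log2 change was 2.17 (SE 0.31) and 1.35 (SE 0.41). Because the genes share most of their sequence, the sum *Trbc1* + *Trbc2* was also fitted. It was at 15.1 ± 5.67 RPKM (SD, n = 4) in ND-fed and 66.4 ± 31.6 RPKM (SD, n = 4) in WD-fed *Tas1r3*+/+ mice, and at 15.7 ± 5.54 (SD, n = 2) and 37.8 ± 5.45 RPKM (SD, n = 3) in *Tas1r3*-/- mice. The share assigned to each gene also differed by diet, as the *Trbc2* to *Trbc1* ratio was 0.871 to 1.04 in the 6 ND libraries and 1.24 to 1.61 in the 7 WD libraries.

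*Trac*, the only alpha constant gene, was less clearly separated by diet. In *Tas1r3*+/+ mice it was at 1.86, 3.86, 9.45 and 6.12 RPKM on ND and at 12.9, 5.19, 22.9 and 19.0 RPKM on WD, so the WD male 2 library lay within the ND range. *Trac* in *Tas1r3*-/- mice was at 3.37 and 13.8 RPKM on ND and at 8.29, 8.54 and 9.72 RPKM on WD, with all WD libraries between the ND males. The log2 change was 1.85 (SE 0.51) in *Tas1r3*+/+ and 0.72 (SE 0.66) in *Tas1r3*-/- mice. The knockout value turned on single ND libraries, being -0.05 without male 1 and 1.48 without male 2.

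The *Trac* reads were divided between a transcript with and one without the last exon of the gene, and this division moved with diet in *Tas1r3*+/+ mice. The form without the last exon took at most 0.244% of the *Trac* RPKM in ND-fed and 35.5% to 53.8% in WD-fed *Tas1r3*+/+ libraries. Its share in *Tas1r3*-/- mice was 33.2% in ND male 2 and close to 0 in ND male 1, and 1.78% to 37.9% on WD. The form with the last exon alone was at 1.86 to 9.45 RPKM in ND-fed and 3.34 to 14.1 RPKM in WD-fed *Tas1r3*+/+ mice. For *Trbc1*, the form with the last exon, not the one without it, took up to 39.3% of its gene in ND-fed *Tas1r3*+/+ mice. It took 6.53% to 26.7% in WD-fed *Tas1r3*+/+ mice, and these ranges overlap. Of *Trbv13-1*, the form lower in most libraries took a median of 1.02% in ND-fed *Tas1r3*+/+ mice, with 81.9% in male 2. It took 17% to 46.3% in WD-fed *Tas1r3*+/+ mice. In *Tas1r3*-/- mice it took 1.02% in both ND males and 17.2% to 50.3% on WD. The other form alone was at 0.837 to 4.18 RPKM in ND-fed and 39.2 to 91.1 RPKM in WD-fed *Tas1r3*+/+ mice. In *Tas1r3*-/- mice it was at 2.99 and 3.43 RPKM on ND and 25.5 to 35 RPKM on WD. The part of these divisions in the diet differences was not tested.

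The gamma and delta constant genes overlapped between the diets in *Tas1r3*+/+ mice. *Trgc1* was at 1.18, 1.35, 3.04 and 2.72 RPKM in ND-fed and 3.35, 1.63, 3.02 and 3.78 RPKM in WD-fed *Tas1r3*+/+ mice, which overlap. *Trgc2* was at 1.19 to 3.70 RPKM in ND-fed and 1.26 to 1.96 RPKM in WD-fed *Tas1r3*+/+ mice, and at 0.453 and 5.12 RPKM in the ND-fed *Tas1r3*-/- males. The log2 change of *Trgc1* was 0.83 (SE 0.32) in *Tas1r3*+/+ and -0.07 (SE 0.42) in *Tas1r3*-/- mice. That of *Trgc2* was 0.07 (SE 0.50) and 0.01 (SE 0.65), and it turned to -0.30 and -0.32 without scaling. The sum *Trgc1* + *Trgc2* changed by 0.56 (SE 0.46) and -0.08 (SE 0.59), the latter being -0.80 without ND male 1 and 0.64 without ND male 2.

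*Trdc*, the delta constant gene, was the only one of the 7 below the filter of 1 RPKM in 2 libraries, so it was not among the 19042 genes tested. It was at 0.281, 0.287, 0.753 and 0.784 RPKM in ND-fed and 0.755, 0.370, 0.567 and 0.497 RPKM in WD-fed *Tas1r3*+/+ mice. The *Tas1r3*-/- libraries were at 0.429 and 0.490 RPKM on ND and at 0.0981, 0.107 and 0.329 RPKM on WD. The knockout groups did not overlap as deposited, but did overlap on the scaled values. These levels rest on 4 to 35 reads per library, and the log2 change was 0.30 (SE 0.20) in *Tas1r3*+/+ and -0.38 (SE 0.26) in *Tas1r3*-/- mice. Values near or below the pseudocount of 0.5 shrink this log2 change and its SE. As deposited, the WD mean was 1.04 times the ND mean in *Tas1r3*+/+ and 0.388 times in *Tas1r3*-/- mice.

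Every WD library lay above every ND library on the scaled values for *Trbv13-1*, *Trbc1* and *Trbc2* in both genotypes. The same held for 4.2% of all genes tested in *Tas1r3*+/+ and 10.8% in *Tas1r3*-/- mice. The genes were selected on these contrasts, so nothing is read from this count.

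Ratios within a library do not depend on the scaling between libraries. The ratio of the beta sum to *Trac* was 2.28 to 5.36 in ND-fed and 3.75 to 7.04 in WD-fed *Tas1r3*+/+ mice, which overlap, with geometric means of 3.17 and 4.68. It was 1.42 and 3.49 in *Tas1r3*-/- mice on ND and 3.82 to 4.64 on WD, with geometric means of 2.23 and 4.25. On the log2 scale the mean in *Tas1r3*+/+ mice was 1.66 on ND and 2.23 on WD, with SDs of 0.53 and 0.42 (n = 4 each).

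The beta sum was also set against the gamma and delta genes. Its ratio to the gamma sum was 2.83 to 4.21 in ND-fed and 10.5 to 21.7 in WD-fed *Tas1r3*+/+ mice, without overlap. The *Tas1r3*-/- libraries were at 2.45 and 5.95 on ND and 8.18 to 22.0 on WD. The ratio to *Trdc* was 23.1 to 37.5 in ND-fed and 63.8 to 191 in WD-fed *Tas1r3*+/+ mice, and 27.4 and 39.9 against 128 to 369 in *Tas1r3*-/- mice. The ratio of *Trac* to the gamma sum was 0.786 to 1.64 in ND-fed and 1.67 to 4.60 in WD-fed *Tas1r3*+/+ mice. As the genes were selected on the diet contrasts, and no share over all genes was computed, nothing is read from the separation of these ratios.

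*Trbv13-1* changed its place relative to the constant genes. Per length, it was at 0.143 to 0.429 of the beta constant sum in ND-fed *Tas1r3*+/+ mice and at 1.05 to 1.77 of it in WD-fed ones. The *Tas1r3*-/- ratios were 0.154 and 0.295 on ND and 1.17 to 1.22 on WD. This single variable gene had a higher RPKM than both beta constant genes together in all 7 WD libraries and in none of the 6 ND libraries. As the genes were selected on the diet contrasts, nothing is read from this separation. What raised this ratio on WD, including any part of T cell clones, was not tested.

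**Figure D2:**
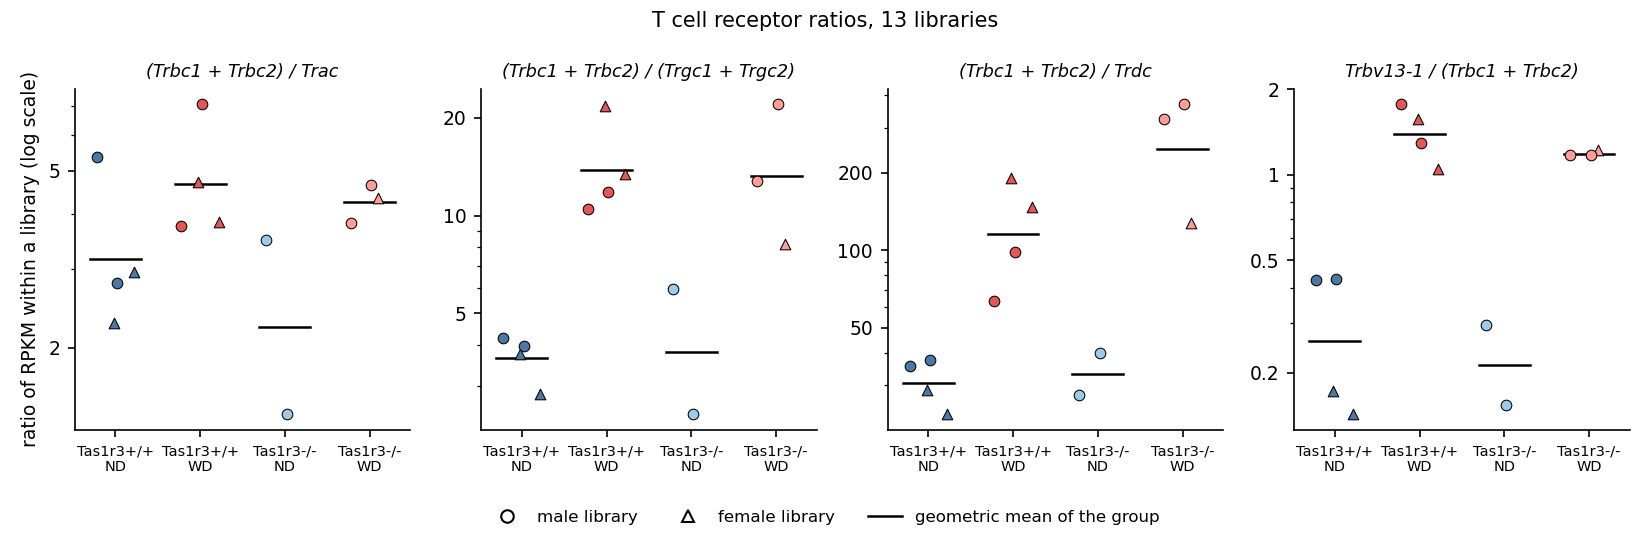
Ratios of RPKM within each of 13 libraries on log axes, with circles for males, triangles for females and bars for geometric means. The beta to alpha ratio overlaps between the diets in *Tas1r3*+/+ mice, whereas the ratios of beta to gamma, beta to delta and *Trbv13-1* to beta do not overlap in either genotype. The genes were selected on the diet contrasts, so nothing is read from this separation.

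Other variable genes lay near *Trbv13-1* in some ND libraries and far below it on WD. The table holds 7 further TCR genes, of which 5 passed the filter, and limma called 0 of the 5 in either diet contrast at adjusted p under 0.01 with a change of at least 2-fold (0 at unadjusted p under 0.05). That call was met by 0.00525% of all genes in *Tas1r3*+/+ and 0% in *Tas1r3*-/- mice. The *Tas1r3*+/+ share comes from a described gene that was selected on this contrast, so it is no independent background. *Trbv13-2*, the closer of the compared genes by sequence, was at 0.320, 0, 0.306 and 1.27 RPKM in ND-fed and 1.56, 0.467, 0.586 and 1.5 RPKM in WD-fed *Tas1r3*+/+ mice. Its log2 change of 0.96 (SE 0.50) did not pass the test (limma, adjusted p = 0.37). *Trbv13-3* was at 0.639, 0, 0.612 and 2.55 RPKM in ND-fed *Tas1r3*+/+ mice, the last in female 2, where *Trbv13-1* was at 2.59 RPKM. It was listed at 0 in both WD-fed *Tas1r3*+/+ females and reached 2.97 RPKM in ND-fed *Tas1r3*-/- male 2, just under the 3.02 RPKM of *Trbv13-1* in that library.

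*Trbv1* was at 1.75 and 2.28 RPKM in the ND-fed *Tas1r3*+/+ females and below 1 RPKM in all other libraries. The gamma genes *Trgc4* and *Trgv2* were at 0.421 to 3.08 RPKM and 0 to 1.94 RPKM across all libraries. Their log2 changes were -0.08 (SE 0.32) and -0.02 (SE 0.46) in *Tas1r3*+/+ mice. Other variable genes of the locus were not analysed here.

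**Figure D3:**
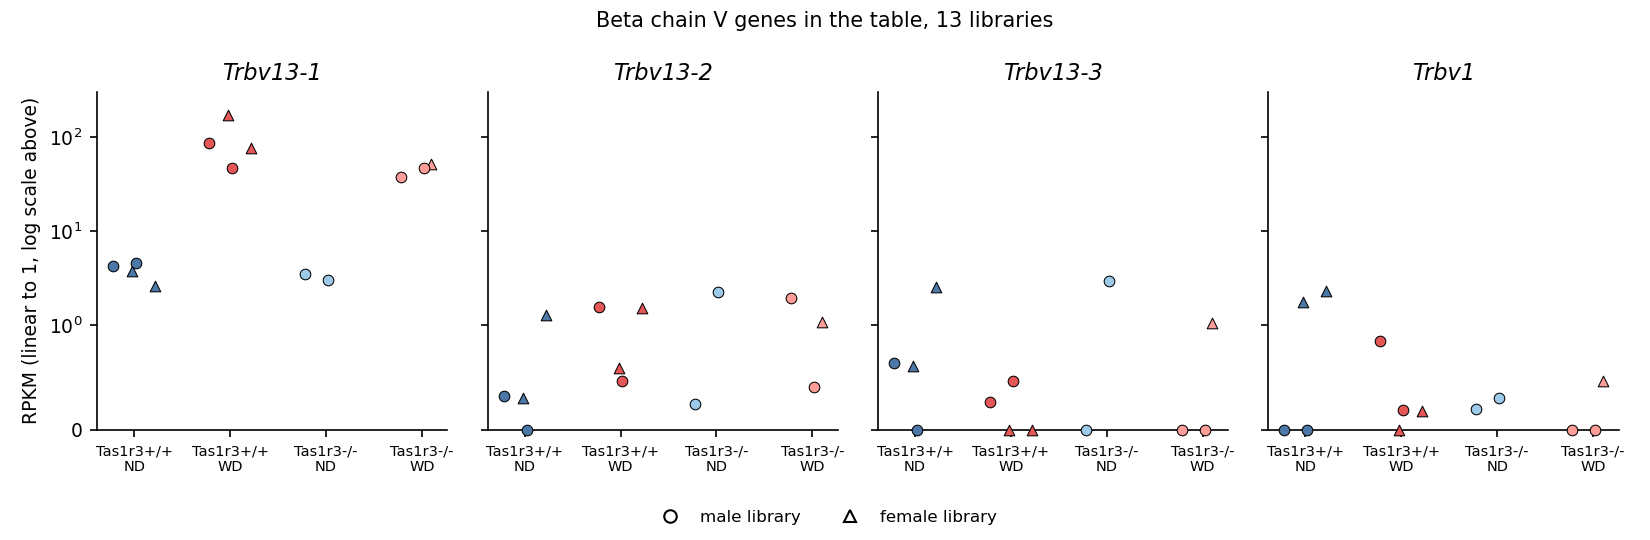
RPKM of the 4 beta chain variable genes in the table, in each of 13 libraries, on an axis that is linear up to 1 RPKM and logarithmic above, with circles for males and triangles for females. *Trbv13-1* is above the other genes in every library, narrowly in ND-fed *Tas1r3*+/+ female 2 (2.59 against 2.55 RPKM for *Trbv13-3*) and *Tas1r3*-/- male 2 (3.02 against 2.97 RPKM), and widely on WD, where *Trbv13-2* stays at or below 1.95 RPKM.

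The comparison of genotypes asked whether loss of TAS1R3 changed the TCR genes on either diet. On ND, limma called 0 of the 6 genes tested, as of all genes (0%), with 0 at an unadjusted p under 0.05 (4.73% of all genes). At adjusted p under 0.05, 0 of 6 were called against 0.00525% of all genes. The log2 difference of *Tas1r3*-/- from *Tas1r3*+/+ mice was -0.02 (SE 0.41) for *Trbv13-1*, 0.29 (SE 0.43) for *Trbc2* and 0.69 (SE 0.63) for *Trac*, with limma adjusted p-values of 0.993, 0.929 and 0.899.

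On WD, all 6 genes had lower estimates in *Tas1r3*-/- than in *Tas1r3*+/+ mice, and limma called 0 of them, against 0.0105% of all genes. At adjusted p under 0.05 it called 0 of 6, against 0.0263% of all genes, and 1 had an unadjusted p under 0.05 (2.65% of all genes). That gene was *Trbv13-1*, with a log2 difference of -0.81 (SE 0.36; unadjusted p = 0.0447, limma adjusted p = 1). Its WD-fed *Tas1r3*-/- libraries, at 37.1 to 51.2 RPKM, overlapped the range of 47.2 to 170 RPKM in WD-fed *Tas1r3*+/+ mice. The differences were -0.63 (SE 0.34) for *Trbc1*, -0.53 (SE 0.38) for *Trbc2* and -0.68 (SE 0.35) for *Trgc1*, each with a limma adjusted p of 1. *Trbc1* was at 13.5 to 16.3 RPKM in *Tas1r3*-/- and 16.3 to 41.5 RPKM in *Tas1r3*+/+ mice, ranges that meet at the same rounded value as deposited and overlap once scaled. These comparisons share their libraries with the diet contrasts on which the genes were selected. The diet change was smaller in *Tas1r3*-/- mice by 0.79 (SE 0.55) for *Trbv13-1* and 0.83 (SE 0.61) for the beta sum on the log2 scale. These differences are built from the diet contrasts, so they are given without a test and nothing is read from them.

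Sex was not used to choose the genes. With group and sex in the model, all 6 genes tested had higher estimates in females, and 5 had an unadjusted p under 0.05, against 19.3% of all genes. None passed after adjustment over all genes: limma called 0 of 6 against 0.042% of all genes, and 0 of 6 at adjusted p under 0.05, against 0.457%. The log2 difference of females from males was 0.88 (SE 0.18; limma adjusted p = 0.0569) for *Trbc2*, 0.76 (SE 0.17; 0.0627) for *Trbc1* and 1.07 (SE 0.34; 0.123) for *Trac*. On scaled values, females lay above males in all 3 groups that have both sexes for *Trbc1*, *Trbc2*, *Trac* and *Trgc2*. The share of all genes with this order was not computed, so nothing is read from this count. The ND-fed *Tas1r3*-/- group has no female library of its own.

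*Trbv13-1* did not follow this order in every group. Its log2 difference between the sexes was 0.28 (SE 0.29; limma adjusted p = 0.649), with females below males in ND-fed *Tas1r3*+/+ mice and above them in both WD groups. Its diet change in *Tas1r3*+/+ mice was 3.92 on the log2 scale between males and 5.61 between females, with 2 libraries on each side. For *Trbc2* these values were 2.38 and 3.02. The difference between the sexes in the diet change was not tested.

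Genes that T cells use alongside the receptor had smaller estimates than the beta chain genes in the main fit in both genotypes. The beta chain genes were selected on the diet contrasts, so nothing is read from this order. Of 33 companion genes in 4 lists, 26 were tested, and limma called 0 in the diet contrast of either genotype, also at adjusted p under 0.05, which 0.116% of all genes met in *Tas1r3*+/+ and 0.00525% in *Tas1r3*-/- mice. Both shares include described genes that were selected on these contrasts, so they are no independent background. In *Tas1r3*+/+ mice 7 of the 26 had an unadjusted p under 0.05 (26.9%, against 15.5% of all genes), and the median log2 change was 0.34 against 0.02 for all genes; it was -0.01 without scaling. For *Tas1r3*-/- mice it was 1 of 26 (3.85%, against 5.49% of all genes), and the median was -0.24 against 0.00 for all genes. In females against males, 16 of 26 had an unadjusted p under 0.05 (61.5%, against 19.3% of all genes) and 0 an adjusted p under 0.05. The median was 0.71 against -0.01 for all genes.

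The CD3 chains carry the signal of every TCR. In *Tas1r3*+/+ mice the log2 change was 1.14 (SE 0.53) for *Cd3d*, 0.33 (SE 0.46) for *Cd3e*, 0.26 (SE 0.50) for *Cd3g* and -0.42 (SE 0.38) for *Cd247*. Their limma adjusted p-values were 0.321, 0.765, 0.839 and 0.619. The *Tas1r3*-/- values were 0.32 (SE 0.68), -0.43 (SE 0.60), 0.19 (SE 0.65) and -0.39 (SE 0.49). The highest of the 7 tested genes of the CD3 and signalling list in *Tas1r3*+/+ mice was *Lck*, a kinase that starts TCR signalling, at 1.23 (SE 0.47; limma adjusted p = 0.243), and the list's median was 0.33.

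Set against the CD3 chains within each library, the beta and alpha constant genes were higher on WD in *Tas1r3*+/+ mice without overlap, and the gamma genes overlapped. The TCR genes were selected on the diet contrasts and no share over all genes was computed, so nothing is read from this separation. The beta sum was at 1.32 to 2.97 times *Cd3d* + *Cd3e* + *Cd3g* in ND-fed and 6.21 to 8.65 times in WD-fed *Tas1r3*+/+ mice. The sum was at 1.24 and 3.82 times on ND and 4.65 to 11.1 times on WD in *Tas1r3*-/- mice. *Trac* was at 0.446 to 0.866 times on ND and 1.09 to 2.16 times on WD in *Tas1r3*+/+ mice, and at 0.871 and 1.09 against 1.07 to 2.38 times in *Tas1r3*-/- mice, which overlap. The gamma sum was at 0.460 to 0.704 times on ND and 0.398 to 0.775 times on WD in *Tas1r3*+/+ mice.

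Among co-receptors and lineage genes, 9 of 10 were tested, with a median log2 change of 0.86 in *Tas1r3*+/+ and 0.05 in *Tas1r3*-/- mice. *Cd4*, the co-receptor of helper T cells, changed by 0.34 (SE 0.29) and *Cd8a*, of cytotoxic T cells, by 0.37 (SE 0.48) in *Tas1r3*+/+ mice. *Cd8b1*, found on the CD8 alpha beta form, had the highest estimate of the list in both genotypes, 1.26 (SE 0.32; limma adjusted p = 0.117) and 0.99 (SE 0.41; limma adjusted p = 0.898). It was at 0.0936 to 1.26 RPKM in ND-fed and 1.08 to 2.08 RPKM in WD-fed *Tas1r3*+/+ mice. In *Tas1r3*-/- mice it was at 0.168 and 0.256 RPKM on ND and 0.447 to 1.26 RPKM on WD. The ND values of these mice lie below the pseudocount of 0.5, which shrinks the log2 change. The lowest were *Bcl11b*, a T cell lineage factor, at -0.03 (SE 0.25) in *Tas1r3*+/+ mice and *Cd6* at -1.05 (SE 0.58) in *Tas1r3*-/- mice.

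Intraepithelial and cytotoxic genes had a median log2 change of 0.14 in *Tas1r3*+/+ and -0.45 in *Tas1r3*-/- mice, with 10 of 10 tested. Estimates ranged from -0.72 (SE 0.42) for *Cd160* to 0.68 (SE 0.38) for *Klrd1*, both receptors of cytotoxic lymphocytes, in *Tas1r3*+/+ mice. Those in *Tas1r3*-/- mice ranged from -1.24 (SE 0.81) for the chemokine *Ccl5* to 0.50 (SE 0.97) for *Nkg7*. Of the recombination list, *Rag1* was at most 0.0574 RPKM and was not tested, and *Rag2* and *Dntt* were not analysed here.

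**Figure D4:**
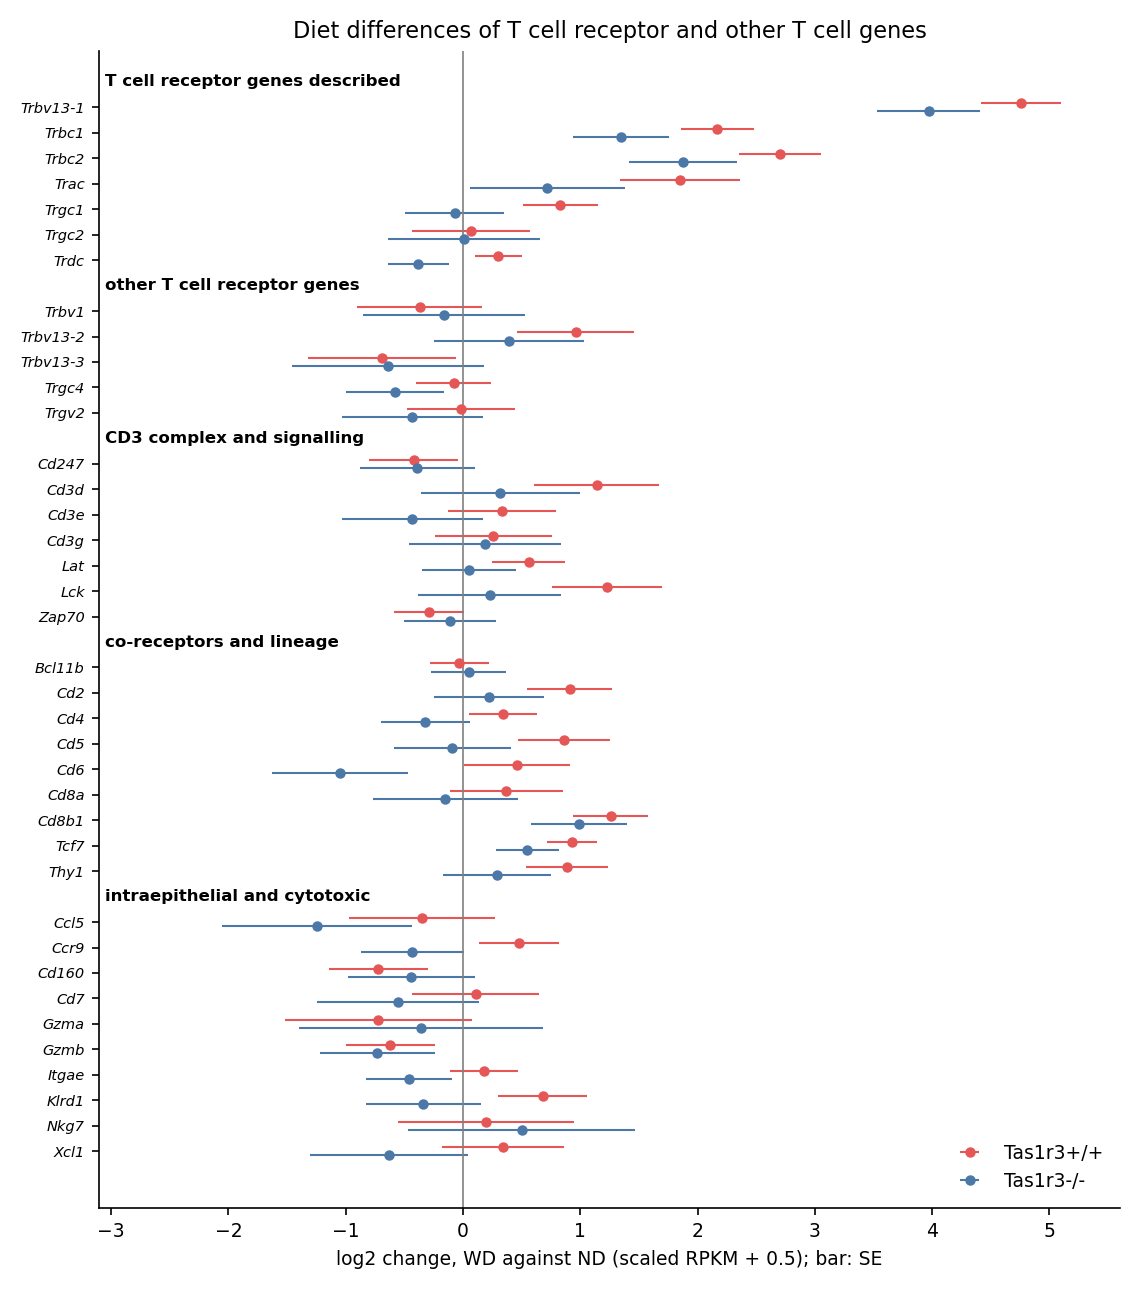
Log2 change from ND to WD in scaled RPKM plus 0.5, with SE, for the 7 TCR genes, 5 other TCR genes and 26 companion genes, in *Tas1r3*+/+ (red) and *Tas1r3*-/- mice (blue). *Trbv13-1* stands at 4.76 and 3.97, the beta constant genes at 1.35 to 2.70, and all companion genes at or below 1.26.

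Markers of cell types were read beside these values, with sums in RPKM as deposited and medians of log2 changes on scaled values. T cell markers summed to 6.07 to 22.2 RPKM in ND-fed and 8.83 to 20.2 RPKM in WD-fed *Tas1r3*+/+ mice, and to 7.81 and 22.7 against 6.25 to 14.8 RPKM in *Tas1r3*-/- mice. Of these 6 markers, 5 were above 0 in *Tas1r3*+/+ (median 0.59) and 3 in *Tas1r3*-/- mice (median 0.05). All 3 pan-leukocyte genes had positive estimates in both genotypes, with medians of 0.79 and 0.55 and sums of 22.0 to 105 RPKM on ND and 50.2 to 65.6 RPKM on WD in *Tas1r3*+/+ mice. All 5 tested B cell markers were above 0 in both genotypes, with medians of 0.54 and 1.59 and sums of 6.30 to 96.5 RPKM in ND-fed and 18.4 to 31.3 RPKM in WD-fed *Tas1r3*+/+ mice. All 6 adipocyte markers were below 0 in both genotypes, with medians of -1.48 and -0.47 and sums of 34.7 to 327 RPKM on ND and 29.0 to 142 RPKM on WD in *Tas1r3*+/+ mice. Of 6 follicle markers, 4 were above 0 in *Tas1r3*+/+ (median 0.62) and 6 in *Tas1r3*-/- mice (median 0.79). Of 6 enterocyte markers, 5 were below 0 in *Tas1r3*+/+ (median -0.44) and 4 in *Tas1r3*-/- mice (median -0.32). Of 6 macrophage markers, 5 were above 0 in *Tas1r3*+/+ (median 0.42) and 5 below 0 in *Tas1r3*-/- mice (median -0.29). Medians in *Tas1r3*+/+ and *Tas1r3*-/- mice were 0.62 and -0.03 for plasma cell, 0.36 and 0.08 for smooth muscle, and 0.39 and 0.45 for the 2 tested natural killer and innate lymphoid markers. None of the markers was called at adjusted p under 0.05 by limma, and none of the 6 pan-T markers was at 0 in any library. The part of these cell types in the TCR differences was not tested.

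Across the 13 libraries, the genes with the pattern most like that of *Trbc2*, by Pearson's r of scaled log2 values, were *Pole4*, *mt-Nd3*, *Bloc1s1*, *BC002059* and *Arhgap15*, at r of 0.92 to 0.94. For *Trbv13-1* they were *BC002059* (r = 0.98), *Gm28439* (0.95), *mt-Nd3*, *Rhoa* and *Pole4* (0.94 each). Neither list holds a gene of the companion lists. Among the described genes, r with *Trbv13-1* was 0.95 for *Trbc2*, 0.93 for *Trbc1* and 0.74 for *Trac*, and 0.52, 0.02 and 0.12 for *Trgc1*, *Trgc2* and *Trdc*. The points share the diet grouping and the library scaling, so these values describe the libraries.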

How the data were processed

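Terminal ileum RNA, enriched for mRNA and depleted of rRNA, was read on an Ion Proton. The authors used Partek Flow, in which STAR 2.5.3a placed reads on GRCm38 before transcripts of Ensembl 91 were quantified. The deposited RPKM values are per transcript. ND columns have near-equal sums, as TPM would give, and whether the diets were scaled differently is not given in the sources used here. Reads were implied from the smallest steps of the values and GENCODE M21 transcript lengths.

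Transcripts were summed per gene symbol, and genes reaching 1 RPKM in at least 2 of 13 libraries were tested. Scaling factors were trimmed means of log ratios, leaving out the outer 30% of ratios and 5% of levels on each side. Using limma 3.58.1 (R 4.3.3) with a trend, 1 model of the 4 groups was fitted to log2(scaled RPKM + 0.5), and p-values were adjusted by Benjamini and Hochberg's method. A call required adjusted p below 0.01 plus a change of 2-fold or more. Sums and *Trdc* were fitted by least squares without moderation. The procedure was tested on simulated data. Python 3.11.15, numpy 2.4.6, pandas 2.3.3 and matplotlib 3.10.9 made the tables and figures. GENCODE M21 gave sequences and coordinates, and names the gamma genes *Tcrg-C1* and *Tcrg-C2*.

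The 7 genes, the companion lists and the marker lists were chosen with earlier results of these data known. Named genes are those 7, the CD3 chains, *Cd4*, *Cd8a*, *Cd8b1*, the highest and lowest diet change of each companion list, the 5 other TCR genes with the highest mean and the 5 genes most like *Trbc2* and *Trbv13-1*. Alternatives covered pseudocounts, scalings, filters, sex or replicate number as terms, fits of 2 groups or males alone, all 16 columns, and leaving out each library. Replacing the averaged female library by 1 column, and RPM from implied reads, were chosen after seeing the data.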

Additional observations from a re-analysis of the deposited data

How the results depend on the processing

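The direction of the *Trbv13-1* and beta sum changes held under every alternative run, whereas that of *Trac* in *Tas1r3*-/- mice turned without ND male 1 and that of *Trgc2* turned without scaling. The gamma sum in *Tas1r3*-/- mice, at -0.08, turned to 0.64 without ND male 2, 0.04 and 0.22 without WD male 1 and male 2, and 0.15 with all 16 columns. The log2 change of *Trbv13-1* from ND to WD ranged from 4.47 to 5.09 in *Tas1r3*+/+ and from 3.73 to 4.21 in *Tas1r3*-/- mice when each library was left out, and that of the beta sum from 2.27 to 2.80 and 1.5 to 1.85. The smaller diet change in *Tas1r3*-/- mice ranged from -1.12 to -0.50 for *Trbv13-1* and -1.13 to -0.60 for the beta sum. With males only, where fewer samples enter, *Trbv13-1* changed by 3.93 in *Tas1r3*+/+ mice, the difference between genotypes was -0.10, and the beta to delta change in *Tas1r3*+/+ mice was 1.12. Leaving out libraries moved the log2 change of the beta to alpha ratio between 0.36 and 0.81 in *Tas1r3*+/+ and 0.28 and 1.58 in *Tas1r3*-/- mice, that of beta to gamma between 1.70 and 2.05 and between 1.15 and 2.43, and that of beta to delta between 1.67 and 2.20 and between 2.62 and 3.38. The knockout extremes of the first 2 came without ND male 2 and without ND male 1. *Trbc2* over *Trgc2* alone gave 2.70 for beta to gamma in *Tas1r3*+/+ mice. There the mean log2 ratio of *Trbc2* to *Trbc1* went from -0.08 on ND to 0.46 on WD, and that of *Trgc2* to *Trgc1* from 0.08 to -0.84. A pseudocount of 0.5 gave 1.79 for beta to delta in *Tas1r3*-/- mice, whose *Trdc* values of 0.0981 to 0.490 RPKM lie below that pseudocount. No other cause of these shifts was tested. Counts of described and companion genes called in the genotype, sex and companion tests were 0 under every alternative run, from 0 to 0 when each library was left out. Over all genes, calls from ND to WD in *Tas1r3*+/+ mice were 1 higher and 0 lower, against 0 with males only, 3 and 1 with sex as a term, 8 and 531 without scaling, and 19 and 14 with all 16 columns, where weighted means count as libraries. The 1 gene called in the main fit was a described gene, selected on this contrast.

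The labels repeat replicate numbers across groups without saying that they mark a litter or day. Deviations of same-numbered libraries of the same sex correlated at -0.20 to 0.57, over 0.1 in 7 of 16 pairs, with a median of 0.07. Other pairs of the same sex had a median of -0.01. Whether a shared number marks a shared litter or day was not tested. With the replicate block, in which the averaged female library took the number of female 1, *Trbv13-1* changed by 4.76 and 3.82 and the beta sum by 2.5 and 1.41 in the 2 genotypes, and calls over all genes in *Tas1r3*+/+ mice were 3 higher and 0 lower. The few ND reads of *Trbv13-1* and the reads of *Trdc* limit the precision of their changes.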
